A study of Mus musculus with 21 samples.

Results

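The transcripts described here are 9 markers of microglia at rest: Tmem119, Olfml3, Sparc, Cst3, Golm1, Crybb1, Slc2a5, Bin1 and Ltc4s. They were chosen by name as genes known to mark these cells, with earlier results of these data known. All 9 are present both in the genotype table of 18079 genes and in the injection table of 13297 genes. The study asks what apolipoprotein E (ApoE), a lipid carrier protein, does to the RNA of microglia. Of its 21 libraries, 7 are labelled as microglia of uninjected wild-type C57BL/6 females and 4 as microglia of uninjected ApoE knockout females (B6.129P2-Apoetm1Unc/J), whose Apoe gene was disrupted by targeting in the germ line. The other 10 are labelled as males of that knockout strain, 5 given phosphate-buffered saline (PBS) in the brain and 5 given recombinant APOE (rAPOE) in PBS, so both injected groups lack the mouse gene. Mice of all groups were 12 to 18 weeks old, and the injected ones were killed 16 h after a single-hemisphere injection. Injected and opposite hemispheres were both collected, and the labels do not say which of them a library holds, nor whether each library is from a mouse of its own. The p-values below therefore rest on the spread between these libraries, which may be partly technical. They also rest on the spread of other genes, since the variance of each gene was drawn towards that of all genes.

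Microglia are the macrophages that live in brain tissue, and at rest they carry a set of transcripts that separates them from blood monocytes and from macrophages of other organs. This set depends on signals of the healthy brain, among them transforming growth factor beta, and is known to fall when microglia are activated, cultured or recruited to lesions. The 9 markers have unlike products. Tmem119 encodes a plasma membrane protein and Slc2a5 a fructose transporter of the plasma membrane. Sparc, Cst3 and Olfml3 encode secreted proteins, which are a collagen-binding matrix protein, the cysteine protease inhibitor cystatin C and an olfactomedin-domain glycoprotein. Golm1 encodes a membrane protein of the Golgi apparatus, Bin1 a protein that binds and curves membranes during endocytosis, Ltc4s the enzyme that joins glutathione to a leukotriene precursor, and Crybb1 a beta-crystallin best known from the lens.

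Upstream sequences were available in RefSeq (GRCm38.p6) for 7 of the 9 markers. The starts used here are those of RefSeq and differ from the GENCODE gene bounds given below. The Sparc window lies wholly within those bounds, and the windows of Cst3, Slc2a5, Golm1, Crybb1 and Ltc4s lie within them in part. The 250 bases before the annotated start are shown, 5′ to 3′ on the gene's own strand, for the 3 of these 7 that rose in the knockout (Sparc, Slc2a5 and Golm1), for Cst3, which did not overlap between groups in either comparison, and for Crybb1, which has a TATA box close to its start. Capitals mark matches, on either strand, to 4 motifs that were searched: GAGGAA (the core bound by PU.1, the lineage factor of macrophages), TGANTCA (an AP-1 site), TGTGGT (a RUNX core) and TATAAA (the TATA box).
Sparc (chr11:55420081-55420330, minus strand): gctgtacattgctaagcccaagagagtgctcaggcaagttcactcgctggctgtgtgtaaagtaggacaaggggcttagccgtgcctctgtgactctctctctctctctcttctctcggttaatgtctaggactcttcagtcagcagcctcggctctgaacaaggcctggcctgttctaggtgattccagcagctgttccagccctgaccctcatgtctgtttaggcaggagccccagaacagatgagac
Slc2a5 (chr4:150119094-150119343, plus strand): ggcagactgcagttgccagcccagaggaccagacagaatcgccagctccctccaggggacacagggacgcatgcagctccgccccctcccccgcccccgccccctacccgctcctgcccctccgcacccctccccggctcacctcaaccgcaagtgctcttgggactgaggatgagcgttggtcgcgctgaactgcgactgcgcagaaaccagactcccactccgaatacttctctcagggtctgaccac
Golm1 (chr13:59675785-59676034, minus strand): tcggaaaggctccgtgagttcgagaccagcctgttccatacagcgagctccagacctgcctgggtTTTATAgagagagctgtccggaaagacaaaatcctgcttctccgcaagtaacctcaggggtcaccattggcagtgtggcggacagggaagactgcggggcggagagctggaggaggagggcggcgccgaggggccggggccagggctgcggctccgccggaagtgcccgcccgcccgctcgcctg
Cst3 (chr2:148875513-148875762, minus strand): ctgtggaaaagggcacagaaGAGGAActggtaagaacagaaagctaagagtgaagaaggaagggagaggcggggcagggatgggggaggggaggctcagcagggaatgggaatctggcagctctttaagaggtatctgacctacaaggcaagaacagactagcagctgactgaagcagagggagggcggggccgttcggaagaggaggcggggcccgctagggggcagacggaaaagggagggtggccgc
Crybb1 (chr5:112255570-112255819, plus strand): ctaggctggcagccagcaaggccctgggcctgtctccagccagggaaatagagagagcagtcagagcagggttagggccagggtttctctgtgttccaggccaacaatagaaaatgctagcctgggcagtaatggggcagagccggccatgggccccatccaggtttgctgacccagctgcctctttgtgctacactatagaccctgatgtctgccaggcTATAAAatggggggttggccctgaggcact
The PU.1 core was found in 1 of 7 markers, Cst3, 230 bases before the start. It was found in 22.9% of 11957 promoters, 1 for each gene of the genotype table that has one in RefSeq. The RUNX core was found in 1 of 7, Ltc4s, 156 bases before the start, against 10.9% of all promoters. The TATA box letters were found in 2 of 7, at 30 bases before the start in Crybb1 and, in reverse, at 185 bases in Golm1, against 6.77% of all promoters. The AP-1 letters were found in 0 of 7 and in 4.47% of all promoters. None of the 4 motifs was thus found in more than 2 of the 7 windows.

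The 9 genes lie on 7 chromosomes. In GRCm38 (GENCODE M21), Tmem119 lies at chr5:113793729-113800516 on the minus strand and Crybb1 at chr5:112255815-112269585 on the plus strand. Sparc lies at chr11:55394500-55423183 and Ltc4s at chr11:50236461-50238616, both on the minus strand. Olfml3 lies at chr3:103722222-103738001, Cst3 at chr2:148871722-148875692 and Golm1 at chr13:59634626-59675811, all on the minus strand, and Slc2a5 at chr4:150119283-150144169 and Bin1 at chr18:32377230-32435737 on the plus strand. All 9 are protein-coding. The last 1000 bases of Golm1, where a 3′ tag would fall, overlap Naa35 on the other strand, and those of Ltc4s overlap the antisense transcript Gm26542. Whether the counting used strand is not given in the sources used here, so reads of these overlapping genes cannot be told apart, and the values of Golm1 and Ltc4s are uncertain to that extent.

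Reads were 3′ tags, and values are normalised counts, which are read counts divided by a factor for the whole library. Depth ran from 2016972 to 3054976 reads in the wild-type libraries, from 4247865 to 4969287 in the knockout, from 704225 to 1347501 after PBS and from 857059 to 1119059 after rAPOE. Apoe, the targeted gene, was at 13195 to 17163 in 6 wild-type libraries, at 0 to 23.1 in the 4 knockout libraries, and at 1011 in the library labelled wild-type 8, which stands apart. Library 8 also held 0 Y-linked reads, as the knockout libraries did, whereas the other 6 libraries labelled as wild-type females held 11 to 36. Xist stood at 1127 to 1279 in those 6, at 3291 in library 8 and at 1980 to 3292 in the knockout. Those 6 libraries thus held both Xist and Y-linked reads, and the reason was not tested. PBS library 5 and rAPOE library 5, both labelled male, held 0 Y-linked reads and Xist at 979 and 718. The genotype results of the markers and the counts of the gene lists are therefore also given without wild-type library 8, and the injection results of the markers and the counts of the lists without both libraries numbered 5. Libraries 4 and 5 of both injected groups also stand apart, with 10025 to 11342 detected genes and 10.8% to 11.8% mitochondrial ribosomal RNA, compared with 7601 to 8837 genes and 12.6% to 20.1% in libraries 1 to 3. The labels name no batch, so the injection results are also given with a term for these sets of libraries, added after seeing the data.

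All 9 markers had a higher mean in the knockout than in the wild type, and 4 of them, Tmem119, Sparc, Slc2a5 and Golm1, rose past the test (limma, Benjamini-Hochberg adjusted p under 0.05 over all genes). None fell. Tmem119 showed the largest rise of the 9, to 2.34 times the wild-type mean, while the other 8 lay between 1.14 and 1.56 times. Among all 10401 genes tested, 5.14% rose and 19.8% fell, and among the 3498 genes with a mean of at least 100, a level that all 9 markers reach, 12.6% rose. The median difference in log2(normalised count + 1) was 0.48 over the 9 markers and -0.45 over all genes tested. Quantile scaling moved the median of all genes to 0.09, with 8.85% of genes risen and 9.87% fallen, and left 4 markers risen with a median of 0.48. Without wild-type library 8, 7 of 9 markers rose, Olfml3, Cst3 and Bin1 being added, against 7.64% of all genes. The wild-type libraries then left were closer to each other than any pair of libraries in the other groups. The p-values without library 8 may therefore understate the spread between mice. The markers were chosen with earlier results of these data known, so the shares of all genes are context and not independent support.

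**Figure D1:**
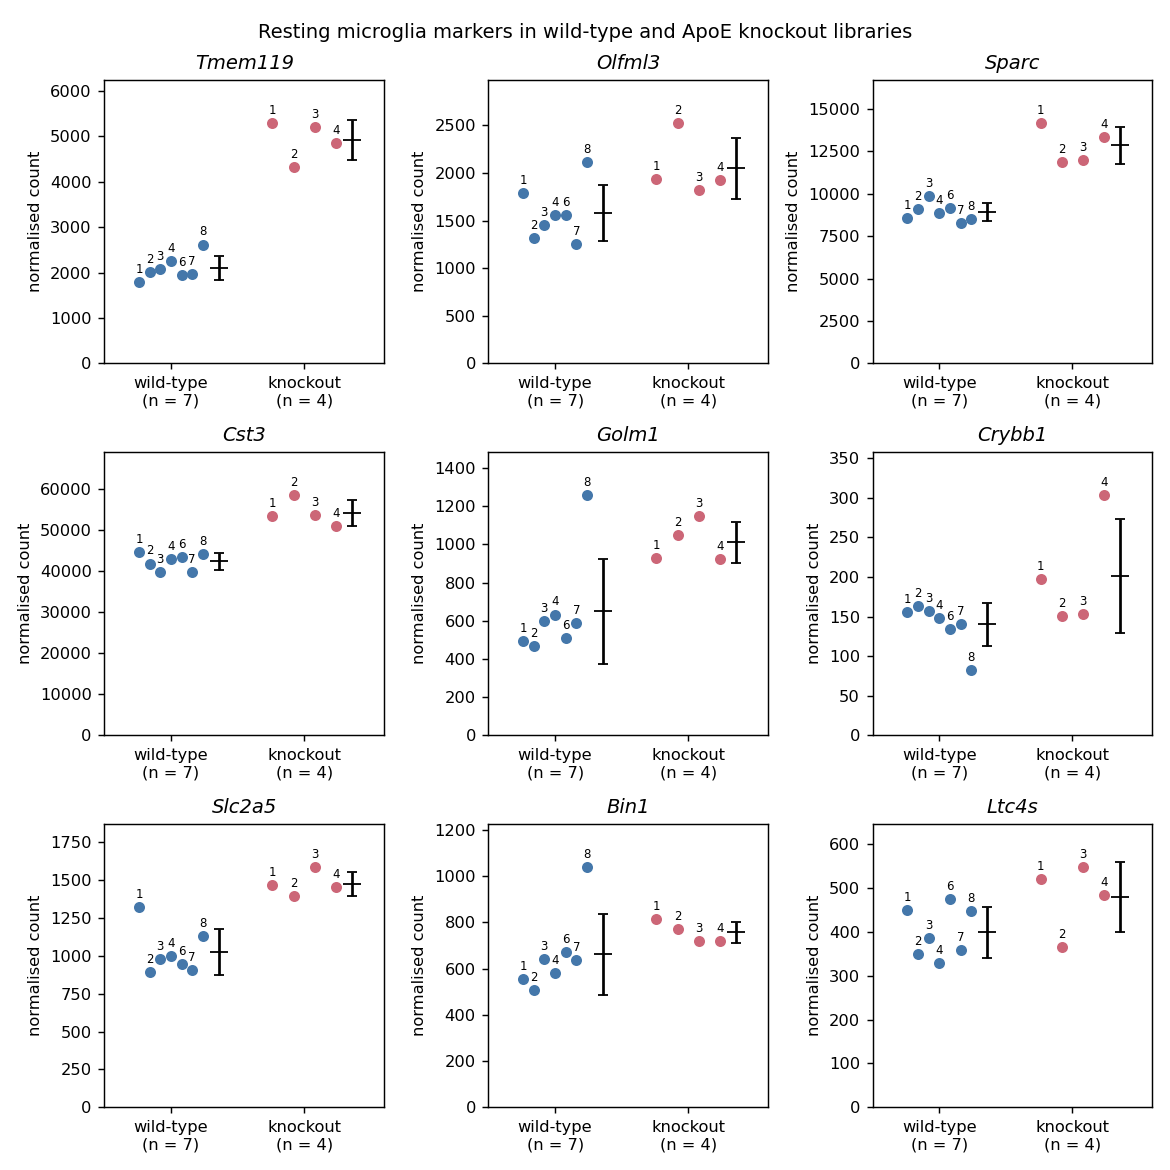
Normalised count (vertical axis, from 0) of each marker in 7 wild-type libraries (blue) and 4 knockout libraries (red), numbered as in the labels, with the mean and SD of each group in black. For Tmem119, Sparc, Cst3 and Slc2a5 all 4 knockout points lie above every wild-type point, and wild-type library 8 is the high point for Golm1 and Bin1 and the low point for Crybb1.

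Of the surface proteins, Tmem119, the marker most used to tell microglia from other brain macrophages, ranged from 1801 to 2618 in the wild type with a median of 2016. In the knockout libraries it stood at 5288, 4315, 5208 and 4847. The groups did not overlap, and the lowest knockout library was well above library 8, the highest wild-type one in normalised count. As a share of reads library 8 was the lowest wild-type library, at 0.0719% against 0.0766% to 0.0939% in the others. The means were 2097 ± 267 (SD, n = 7) and 4915 ± 443 (SD, n = 4), a log2 difference of 1.23 (SE 0.13, 95% interval 0.96 to 1.50, adjusted p = 1.18e-05). Slc2a5, the fructose transporter, ranged from 894 to 1323 in the wild type (median 975) and stood at 1466, 1391, 1583 and 1451 in the knockout. Again no library of either group crossed into the other, although wild-type library 1 came close. Its mean went from 1024 ± 153 to 1473 ± 80.1, a log2 difference of 0.54 (SE 0.13, adjusted p = 0.00729).

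Of the secreted proteins, Sparc ranged from 8261 to 9842 in the wild type (median 8841) and stood at 14157, 11882, 12010 and 13343 in the knockout. All 4 knockout libraries lay above all 7 wild-type ones. The means were 8907 ± 530 and 12848 ± 1094, a log2 difference of 0.53 (SE 0.12, adjusted p = 0.00644). Cst3, which encodes cystatin C, ranged from 39762 to 44732 in the wild type (median 42922) and stood at 53426, 58470, 53582 and 51022 in the knockout. These groups did not overlap either, yet the log2 difference of 0.35 (SE 0.17, 95% interval -0.02 to 0.73) did not pass (adjusted p = 0.160). Its libraries lay close together, with coefficients of variation of 4.71% and 5.77%, and the SE is drawn towards the spread of other genes. In limma with no filter the SE was 0.0624 (adjusted p = 0.00116), and with no intensity trend it was 0.168 (adjusted p = 0.161). Without library 8 the difference in Cst3 was 0.36 and its adjusted p 0.00124, and edgeR on the recovered reads, with all libraries, gave an adjusted p of 0.0125. Over 22 alternative settings its adjusted p lay between 4.31e-05 and 0.707 and passed in 6. Olfml3 ranged from 1252 to 2114 in the wild type (median 1555) and stood at 1934, 2524, 1817 and 1922 in the knockout. Only knockout library 2 was above all wild-type libraries in normalised count, library 8 being the highest of those. As a share of reads library 8, at 0.0581%, lay within the range of the other wild-type libraries, 0.0527% to 0.0762%. Its log2 difference of 0.39 (SE 0.15) had an adjusted p of 0.0856 with all libraries and, at 0.46, one of 0.00990 without library 8.

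Of the proteins inside the cell, Golm1, the Golgi protein, ranged from 467 to 1258 in the wild type (median 588) and stood at 927, 1050, 1147 and 924 in the knockout. In normalised count library 8 was above every knockout library, and the other 6 wild-type libraries were below all of them. As a share of reads library 8, at 0.0346%, was below every knockout library, at 0.0384% to 0.0557%. The log2 difference was 0.71 (SE 0.23, adjusted p = 0.0323) with all libraries and 0.88 (adjusted p = 4.63e-05) without library 8. The call on Golm1 is a weak one with all libraries, since it was lost in edgeR (adjusted p = 0.0941) and DESeq2 (adjusted p = 0.0691) and without any 1 of wild-type libraries 1, 2, 3, 4, 6 and 7 or knockout libraries 1, 2 and 3, where the adjusted p lay between 0.0502 and 0.0757. It passed in 9 of 22 alternative settings, compared with 22 for Tmem119 and 20 each for Sparc and Slc2a5. Bin1, the endocytic membrane protein, ranged from 507 to 1038 in the wild type (median 638) and stood at 816, 772, 717 and 720 in the knockout. Here too library 8 alone exceeded the knockout in normalised count, and the log2 difference of 0.23 (SE 0.17, adjusted p = 0.357) became 0.34 without it (adjusted p = 0.0172). As a share of reads library 8 was again below the knockout, at 0.0285% against 0.0330% to 0.0349%. Ltc4s, the leukotriene enzyme, ranged from 328 to 473 in the wild type (median 384) and stood at 520.5, 365, 547 and 483 in the knockout. Knockout library 2 fell among the wild-type libraries, and the log2 difference of 0.26 (SE 0.16, adjusted p = 0.252) did not pass. Crybb1, the crystallin, ranged from 83.0 to 163 in the wild type (median 148) and stood at 198, 151, 153 and 303 in the knockout. Knockout libraries 2 and 3 overlapped the wild type, and the log2 difference of 0.48 (SE 0.25, adjusted p = 0.172) did not pass.

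Without library 8, 7 of the 9 markers had all 4 knockout libraries above all remaining wild-type libraries, which 5.89% of all genes tested did. With all libraries it was 4 of 9, against 3.67% of the genes tested. Library 8 itself lay below all 4 knockout libraries in normalised count for Tmem119, Sparc, Cst3, Slc2a5 and Crybb1. Its place depends on the library-wide factor. The 9 markers had their highest wild-type summed level there, 61406, but took their lowest wild-type share of reads, 1.69%.

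The rise was compared with that of 35 other genes of resting microglia, a list that includes purinergic receptors, complement genes and transcription factors. In the knockout 16 of these 35 rose and 1 fell, with a median log2 difference of 0.44, close to the 0.48 of the 9 markers. Of all genes tested 5.14% rose and 19.8% fell, and 12.6% of those with a mean of at least 100 rose. Without wild-type library 8, 21 of the 35 rose and 2 fell, against 7.64% and 23% of all genes. The 4 with the lowest adjusted p were the organic anion transporter Slco2b1 at 1.01 (SE 0.11), the phospholipid enzyme Lpcat2 at 1.12 (SE 0.16), the Fc receptor-like gene Fcrls at 0.89 (SE 0.13) and the complement gene C1qc at 0.69 (SE 0.11). The gene that fell was the purinergic receptor P2ry13 at -0.50 (SE 0.17, adjusted p = 0.0469), named after its value was seen. That call is a weak one, since no gene of the list fell in 13 of 21 alternative settings, among them a pseudocount of 0.1, TMM scaling, edgeR and the fit with no intensity trend. When each library was scaled to the mean log2 level of these other resting genes, Tmem119 was the only marker that still passed, at 0.79 (SE 0.12, adjusted p = 2.53e-04). Sparc, Slc2a5, Golm1 and Crybb1 kept a positive difference of 0.08, 0.09, 0.27 and 0.04, and Olfml3, Cst3, Ltc4s and Bin1 turned to -0.06, -0.09, -0.18 and -0.22. That scaling moved the median of all genes from -0.45 to -0.90, and 1.21% of genes rose and 35.9% fell under it.

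**Figure D2:**
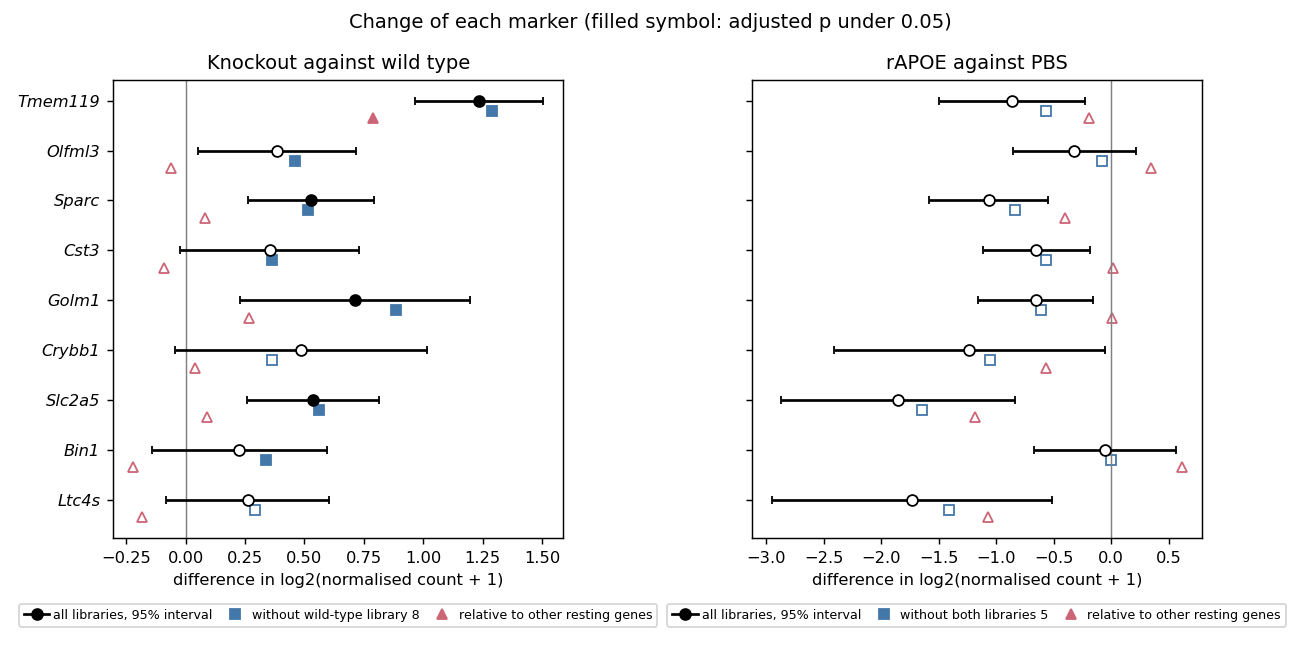
Difference of each marker in log2(normalised count + 1) (horizontal axis) for knockout against wild type (left) and rAPOE against PBS (right), with all libraries and a 95% interval (circles), without wild-type library 8 (left) or both libraries numbered 5 (right; squares) and scaled to the other resting microglia genes (triangles). Filled symbols have an adjusted p under 0.05; Tmem119 at the left is filled in all 3 settings, and no symbol at the right is filled.

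Transcripts of other cell types differed between the same groups in the opposite direction. The counts of fallen genes below stand beside 19.8% fallen among all genes tested. Together, the listed markers of 9 other cell types took 0.721% to 3.83% of the reads in the wild type and 0.0749% to 0.105% in the knockout, whereas the 9 microglia markers took 1.69% to 2.55% and 3.27% to 3.73%. All 9 choroid plexus genes tested fell, and their summed level was 24059 to 84347 in the wild type and 438 to 910 in the knockout, Folr1 and Sostdc1 being at 0 in all knockout libraries. Of the astrocyte genes 6 of 7 tested fell (summed level 1278 to 2257 against 492 to 916, Gfap and Aldh1l1 at 0 in the knockout). Of the neuronal genes 7 of 9 fell (45.1 to 919 against 0 to 60.5, Map2, Rbfox3, Slc17a7 and Nefl at 0). Of the oligodendrocyte genes 3 of 6 fell (197 to 663 against 92.5 to 282, Mog, Mobp, Cldn11, Olig1 and Olig2 at 0). These 4 groups cover the main cells of the brain outside the myeloid lineage and the vessels. For vessels, 2 of 7 endothelial genes fell (253 to 486 against 165 to 329, none at 0 throughout) and 2 of 3 tested pericyte and fibroblast genes fell (52.4 to 191 against 16.4 to 55.1, Pdgfrb, Kcnj8, Pdgfra, Vtn and Cspg4 at 0). For other blood-derived and border cells, 5 of 9 monocyte genes fell (75.8 to 1626 against 0 to 276, Plac8 and S100a4 at 0), as did 2 of 7 border macrophage genes (267 to 782 against 105 to 301) and all 4 tested mast cell genes (14.4 to 353 against 0 to 36.8, Cpa3, Tpsb2, Cma1, Kit and Fcer1a at 0). None of these genes rose past the test. Some had a higher mean in the knockout, among them Pecam1, Kdr and Cdh5 (endothelial), Chil3 and Ly6c2 (monocyte), Cd209f (border macrophage) and Gad1 (neuronal). The 2 of 7 endothelial and 2 of 7 border macrophage genes are not far from the 19.8% of all genes. Without wild-type library 8 the counts that fell were 8 for neurons, 5 for oligodendrocytes and 4 for endothelial cells, those of the other 6 cell types did not change, and again none rose. The groups also differed in detected genes, 13592 to 15248 in the wild type and 8117 to 10479 in the knockout, and in mitochondrial ribosomal RNA, 1.36% to 4.67% of reads (4.67% in library 8) and 0.647% to 0.886%. The part of cell makeup, of sex-linked differences, of depth, of detected genes and of ribosomal RNA in the rise of the markers was not tested. In bulk RNA, more microglia in a sample, more RNA of a marker per microglial cell and reads of a marker from other cells cannot be told apart.

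Genes listed alongside the markers did not all share their direction. Among all genes tested 5.14% rose and 19.8% fell. The 1 of 14 genes listed with Bin1 that fell is below that share, and the 3 of 11 Golgi genes are not far from it. Among the cystatin list, the target proteases legumain (Lgmn, 0.95, SE 0.13), cathepsin H (Ctsh, 0.52, SE 0.14) and cathepsin C (Ctsc, 0.40, SE 0.12) rose, while the related cystatin Cst7 fell at -4.24 (SE 1.17), which makes 3 higher and 1 lower of 8. Among leukotriene genes, Alox5ap, which presents the substrate to the first enzyme of the pathway, rose by 0.54 (SE 0.15), while that enzyme, Alox5, fell at -2.51 (SE 0.85) and the transferase Mgst1 fell at -3.64 (SE 1.04), out of 6 tested. Among the genes listed with Bin1, the lipid phosphatase Inpp5d (0.96, SE 0.18) and the clathrin assembly gene Picalm (0.52, SE 0.18) rose. The Bin1 paralog Amph fell, out of 14 tested. Amph was at 0 in all knockout libraries. Among other hexose genes, the transporters Slc2a12 and Slc2a3 and the aldolase Aldoc fell, and none of the 9 tested rose. Among 6 tested relatives and matrix partners of Sparc, Col1a2, Sparcl1, Spock3 and Spock2 fell, and so, named after their values were seen, did Vcam1 at -1.24 (SE 0.34), while the scavenger receptor Stab1 rose at 0.84 (SE 0.23). Col1a2, a fibroblast collagen, and Spock3, a proteoglycan of neural tissue, were at 0 in all knockout libraries. Of 11 Golgi genes, Golga4, Golgb1 and Golga2 fell and the galactosyltransferase B4galt1 rose at 0.44 (SE 0.14). Of 6 crystallin genes tested, Cryab and Crybg1 fell, and of 4 olfactomedin genes, Olfml1 and Olfm1 fell. None rose in these last families. Among the fallen genes the wild-type mean was low for Amph (23.5), Slc2a12 (73.4) and Olfm1 (97.4) and higher for Aldoc (234) and Cst7 (1273). Which cells the fallen transcripts came from was not tested. Without wild-type library 8 the counts were 5 higher and 2 lower for the cystatin list and 2 and 1 for leukotriene genes. They were 3 and 1 for the genes listed with Bin1 and 3 and 3 for Golgi genes. Those of the other 4 lists did not change. Of all genes 7.64% rose and 23% fell without it.

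**Figure D3:**
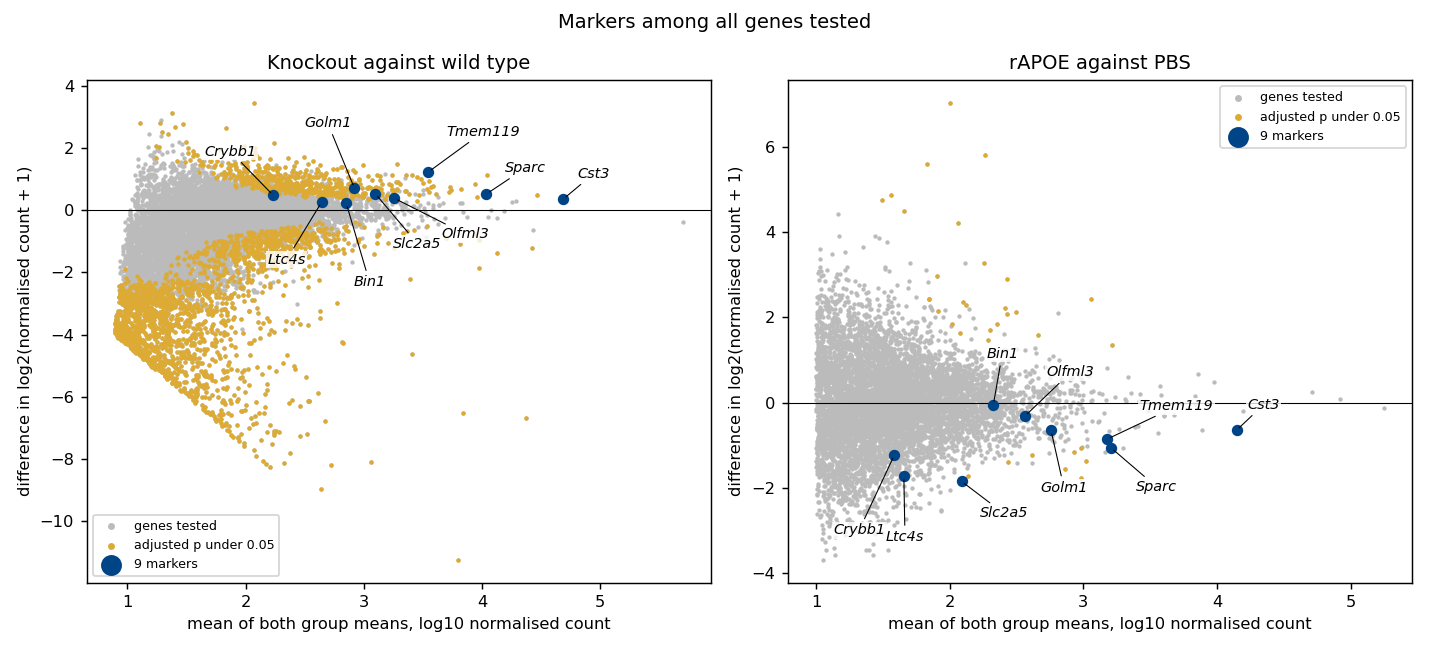
Every gene tested, as the log10 of the average of both group means (horizontal axis) against the difference in log2(normalised count + 1) (vertical axis), for knockout against wild type (left, 10401 genes) and rAPOE against PBS (right, 7066 genes). Genes with an adjusted p under 0.05 are yellow and the 9 markers are dark blue; the markers lie above 0 at the left and at or below 0 at the right.

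The second comparison asks what the protein does when it is put back into a brain without it. All 9 markers had a lower mean after rAPOE than after PBS, and none passed the test over all 7066 genes with limma, in which 0.113% of genes fell and 0.368% rose. At an unadjusted p under 0.05, 7 of the 9 markers were lower, all but Olfml3 and Bin1, compared with 5.99% of all genes. With edgeR on the recovered reads 0 of 9 passed, against 0.0142% of all genes called lower, and with DESeq2 3 passed, against 0.637%, namely Sparc (adjusted p = 0.0101), Cst3 (0.00673) and Slc2a5 (0.0395). The median log2 difference was -0.86 over the markers and -0.01 over all genes. All 5 rAPOE libraries lay below all 5 PBS libraries for Sparc and Cst3, which 1.54% of all genes did. With a term for libraries 4 and 5 against 1 to 3, the same differences passed for 3 markers, Sparc (adjusted p = 0.0197), Cst3 (0.0462) and Slc2a5 (0.0209), against 0.41% of all genes called lower. Within libraries 1 to 3 alone the difference was negative for 8 of 9 markers, with Bin1 at 0.01, and within libraries 4 and 5 for 9 of 9. It was -0.82 and -1.44 for Sparc in these sets, -0.46 and -0.94 for Cst3, -0.52 and -1.38 for Tmem119 and -1.65 and -2.15 for Slc2a5.

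**Figure D4:**
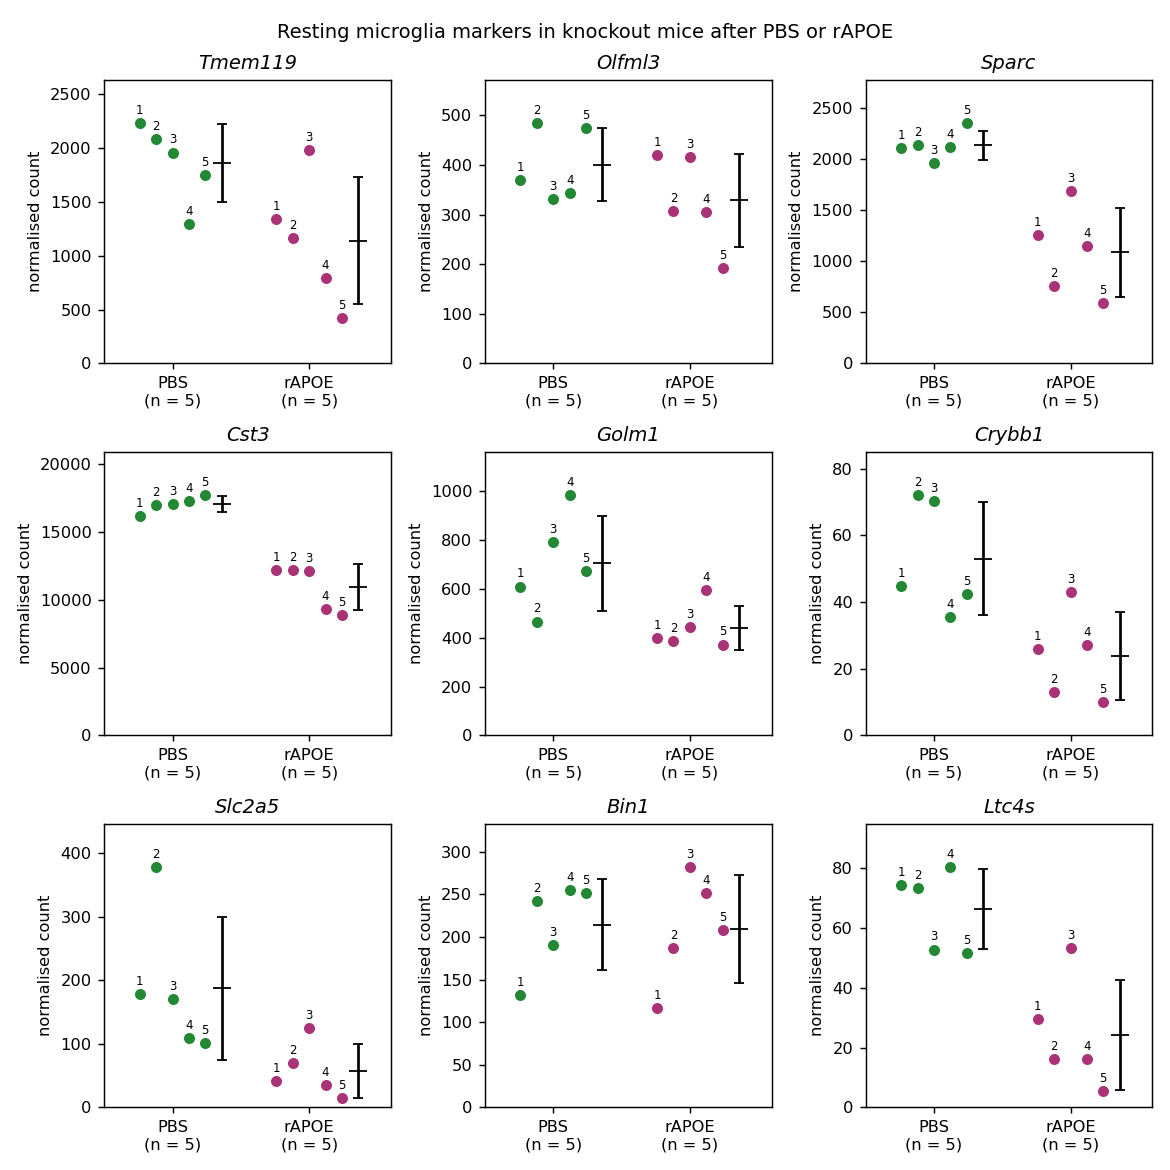
Normalised count (vertical axis, from 0) of each marker in 5 libraries of PBS-injected (green) and 5 of rAPOE-injected knockout mice (purple), numbered as in the labels, with the mean and SD of each group in black. Sparc and Cst3 do not overlap between groups, rAPOE library 5 is the lowest of its group for 8 of 9 markers, and Bin1 spans the same range in both.

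Of the secreted proteins, Sparc stood at 2106, 2138, 1961, 2122 and 2353 after PBS and at 1257, 756, 1693, 1150 and 588 after rAPOE. The PBS libraries lay close together, the rAPOE libraries were spread out, and no library crossed into the other group. The means were 2136 ± 140 (SD, n = 5) and 1089 ± 436 (SD, n = 5), a log2 difference of -1.07 (SE 0.25, 95% interval -1.58 to -0.55, adjusted p = 0.0599). Without both libraries numbered 5 it was -0.83 (adjusted p = 0.365), and without rAPOE library 3 it was -1.25 and passed (adjusted p = 0.0111). It passed in 8 of 23 alternative settings, with adjusted p between 0.00821 and 0.431. Cst3 stood at 16163, 17023, 17066, 17301 and 17718 after PBS and at 12233, 12182, 12127, 9320 and 8882 after rAPOE. The groups did not overlap, and rAPOE libraries 4 and 5 were the lowest. The means were 17054 ± 569 and 10949 ± 1694, a log2 difference of -0.65 (SE 0.22, adjusted p = 0.251) and of -0.57 (adjusted p = 0.561) without both libraries 5. Olfml3 ranged from 331 to 484 after PBS and from 193 to 421 after rAPOE, with 3 rAPOE libraries below all PBS ones. Its log2 difference was -0.32 (SE 0.26, 95% interval -0.86 to 0.21, adjusted p = 0.683).

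Of the surface proteins, Tmem119 stood at 2232, 2081, 1960, 1296 and 1750 after PBS and at 1343, 1161, 1980, 794 and 423 after rAPOE. The groups overlapped, since rAPOE library 3 was as high as most PBS libraries and PBS library 4 was lower than rAPOE library 1. The means were 1864 ± 363 and 1140 ± 588, a log2 difference of -0.86 (SE 0.31, 95% interval -1.50 to -0.22, adjusted p = 0.281), and it was -0.57 (adjusted p = 0.575) without both libraries 5. Slc2a5 stood at 179, 378, 171, 109 and 101 after PBS and at 41.2, 69.6, 125, 34.9 and 14.8 after rAPOE, values that rest on 19 to 299 reads. PBS library 2 was far above its group, and rAPOE library 3 was the one that reached the PBS range. The means were 188 ± 112 and 57.2 ± 42.9, and the log2 difference of -1.85 (SE 0.49, adjusted p = 0.111) was the largest of the 9 markers. It passed without rAPOE library 3, at -2.22 (adjusted p = 0.0257), and stood at -1.64 (adjusted p = 0.270) without both libraries 5. Over 23 alternative settings it passed in 5, with adjusted p between 0.0209 and 0.417.

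Of the proteins inside the cell, Golm1 stood at 610, 467, 790, 984 and 675 after PBS and at 401, 387, 443, 597 and 372 after rAPOE. Only rAPOE library 4 lay within the PBS range, and the log2 difference was -0.66 (SE 0.24, adjusted p = 0.292). Ltc4s stood at 74.5, 73.3, 52.8, 80.3 and 51.5 after PBS and at 29.5, 16.1, 53.2, 16.3 and 5.44 after rAPOE, with 7 reads behind the lowest value. Again rAPOE library 3 alone reached the PBS range, and the log2 difference was -1.73 (SE 0.59, 95% interval -2.95 to -0.52, adjusted p = 0.245). Crybb1 ranged from 35.6 to 72.1 after PBS and from 10.1 to 43.2 after rAPOE, on 13 to 66 reads per library. Its log2 difference of -1.23 (SE 0.57, adjusted p = 0.420) has a wide interval, from -2.41 to -0.06. Bin1 stood at 132, 243, 190, 256 and 252 after PBS and at 117, 188, 282, 251 and 208 after rAPOE. The groups spanned the same range, and the log2 difference was -0.05 (SE 0.30, 95% interval -0.68 to 0.57, adjusted p = 0.972), an interval that leaves room for changes in either direction.

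**Figure D5:**
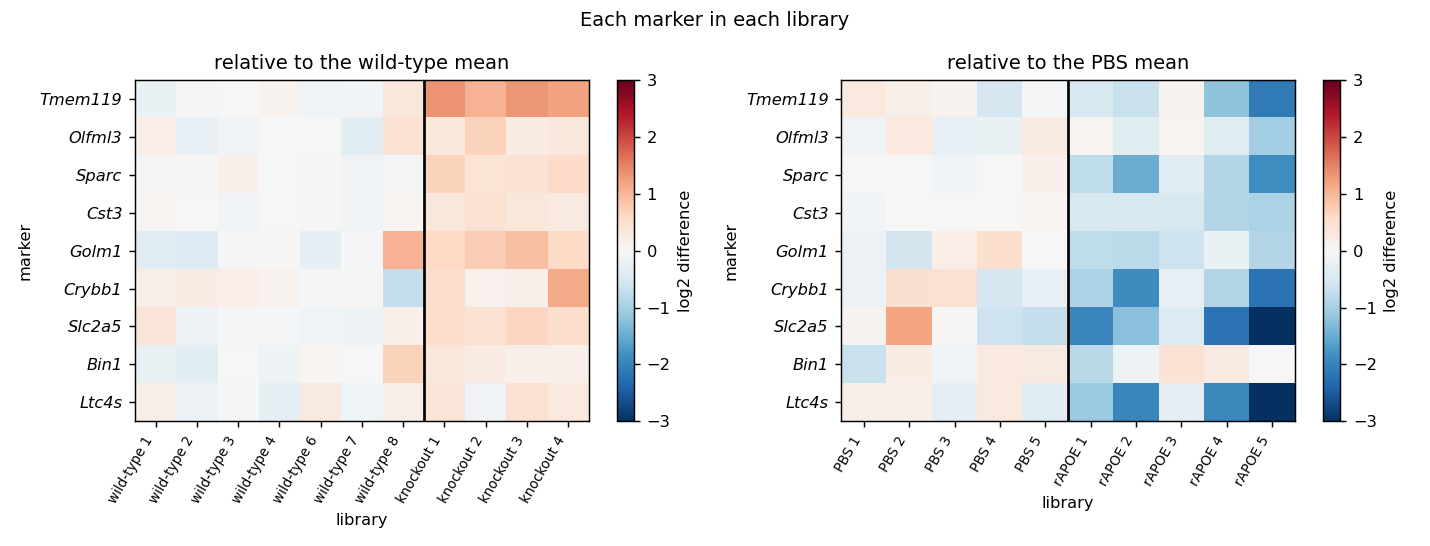
Log2(normalised count + 1) of each marker (rows) in each library (columns), as the difference from the wild-type mean in the genotype table (left) and from the PBS mean in the injection table (right), with red above and blue below that mean on a scale cut at -3 and 3. The 4 knockout columns are red or pale throughout except Ltc4s in library 2, and rAPOE library 5 is the darkest blue column while library 3 is the palest of the rAPOE columns.

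For 8 of the 9 markers the coefficient of variation was larger among the rAPOE libraries than among the PBS libraries, the exception being Golm1 (27.6% after PBS, 20.8% after rAPOE). After rAPOE, library 5 was the lowest of its group for 8 of 9 markers and library 3 the highest for 6 of 9, and the mean log2 deviation over the markers was -0.82 in library 5 and 0.74 in library 3. The largest deviation of a PBS library was 0.22, in library 2. The summed level of the 9 markers was 21910 to 23417 after PBS and 10697 to 17163 after rAPOE.

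Among the 35 other resting microglia genes, 34 could be tested after injection. None rose and 5 fell, against 0.368% and 0.113% of all 7066 genes, and the median log2 difference of the list was -0.63. The selectin ligand Selplg changed by -1.38 (SE 0.24, adjusted p = 0.00605), the purinergic receptor P2ry12 by -1.77 (SE 0.31), the lectin Siglech by -1.41 (SE 0.29), the receptor Gpr34 by -1.57 (SE 0.33) and, named as the last of the 5 after its value was seen, the integrin Itgb5 by -1.22 (SE 0.27). Without both libraries 5 none of the 5 calls remained, against 0.0142% of all genes called lower. Without rAPOE library 3 there were 10 calls, against 38 of all 7054 genes. With the term for libraries 4 and 5 there were 9, against 0.41% of all genes. Relative to the mean of these genes within each library, no marker passed, and Olfml3, Cst3, Golm1 and Bin1 turned to differences of 0.35, 0.01, 0.01 and 0.61. Tmem119, Sparc, Crybb1, Slc2a5 and Ltc4s kept negative differences of -0.20, -0.40, -0.57, -1.19 and -1.07. That scaling moved the median of all genes from -0.01 to 0.65, and 4.13% of genes rose and 0.0142% fell under it.

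No gene of the leukotriene, hexose, cystatin, Sparc, Bin1, Golgi, crystallin or olfactomedin lists passed after rAPOE, in lists of 3 to 12 tested genes, nor without both libraries 5. No marker of another cell type that could be tested passed either, with or without them. Few could be tested: 0 of monocytes and of mast cells, 1 each of endothelial cells and of pericytes and fibroblasts, 2 each of choroid plexus cells, neurons and border macrophages, 3 of astrocytes and 4 of oligodendrocytes. Those lists together took 0.0450% to 0.0971% of the reads after PBS and 0.0363% to 0.127% after rAPOE. Monocyte genes summed to 12.8 to 30.9 after PBS and 6.02 to 62.5 after rAPOE, with Ly6c2 at 0 in all PBS libraries, and border macrophage genes to 11.4 to 103 and 13.2 to 81.7. Choroid plexus genes summed to 0.827 to 267 and 0 to 522. Mitochondrial ribosomal RNA took 10.8% to 16.5% of reads after PBS and 11.6% to 20.1% after rAPOE. The part of these measures in the marker values was not tested.

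The genes whose log2 levels followed Tmem119 most closely over the 11 genotype libraries, among 5714 genes with a mean of at least 50, were Marcks (r = 0.991), Lyn (0.987), Rab14 (0.979), Fcrls (0.974) and Selenop (0.973). Over the 10 injection libraries, among 2486 such genes, those among the 5 closest were Syngr1 (0.968), Ypel3 (0.963), P2ry13 (0.950) and Mid1ip1 (0.942). None of the genes named is in both sets. Fcrls in the first set and P2ry13 in the second are genes of the resting list. The closest of the other markers was Sparc in the genotype table (0.926) and Slc2a5 in the injection table (0.906), and the least close were Crybb1 (0.455) and Bin1 (-0.087). Crybb1 and Ltc4s lie below a mean of 50 in the injection table and were not ranked there. These coefficients are descriptions over libraries that share group differences and depth, and carry no test.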

How the data were processed

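RNA of microglia isolated from brain was read as 3′ tags (QuantSeq 3′ FWD, MiniSeq), per the labels' protocols. The mouse build GRCm38.p3 and the tools Picard 1.8.4, R 3.2.3, DESeq2 and HTSeq are named, without their roles, per the submitters' processing notes. No source used here gives the aligner, annotation or strand setting. Deposited values are a signal, which is a read count divided by a library-wide factor, and each table was normalised apart, so levels are not compared between tables. Values above 0 were whole multiples of 1 step per library (100% within 0.01 of a whole number), which gave the reads back for edgeR 4.0.16 and DESeq2 1.42.0 as alternatives. Intervals cover counting error or replicate spread only, since reads carry no molecular identifiers.

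Of 18221 entries in the genotype table, 22 with dates for names (0.0966% of the values) and 120 at 0 throughout were left out. Values were tested as log2(normalised count + 1) with limma 3.58.1 (R 4.3.3, eBayes with an intensity trend) on genes with a mean of at least 10, and p-values were Benjamini-Hochberg adjusted over all genes tested. A difference on this scale understates the change of low genes. No library pair agreed within sampling noise. The design had foreseen raw or normalised counts, and the latter test was used. The text names all 9 markers, up to 4 genes per list by adjusted p, and the 5 genes most like Tmem119 in each table, 1 of which is not reported here. The markers and lists were chosen with earlier results of these data known, and the fit was tested on simulated data. Alternatives were pseudocounts, filters, TMM, quantile and resting-gene scaling, other tools, a replicate block, leaving out libraries and, added after seeing the data, a term for libraries 4 and 5 of the injected groups.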

Additional observations from a re-analysis of the deposited data

Results flagged for a closer look

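Each marker was looked at in each of the 4 groups, 36 pairs in all. The search was for a library whose gap to its nearest neighbour took up most of the group's range, and 5 pairs stood out. For independent pairs chance gives about 1 in 20. These pairs share libraries, so their count cannot be weighed against that rate. In normalised count, wild-type library 8 was far above its group for Golm1, at 1258, and for Bin1, at 1038, and far below it for Crybb1, at 83.0. As a share of reads it was 0.0346% for Golm1, against at most 0.0264% in the other wild-type libraries. For Bin1 it was 0.0285%, against at most 0.0272%. Knockout library 2 was far above its group for Olfml3, at 2524. PBS library 2 was far above its group for Slc2a5, at 378.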

How the results depend on the processing

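In the genotype comparison the marker values and calls gave the same direction and side of the threshold in 169 checks, lost the call in 17, gained it in 8 and turned in 4. The 4 that turned did so under scaling to the other resting genes, Olfml3 to -0.060, Cst3 to -0.092, Bin1 to -0.22 and Ltc4s to -0.18. Instead of 4 risen markers there was 1 under that scaling and 1 with no intensity trend. Leaving out single libraries gave 3 to 7 (7 without wild-type library 8), 402 to 791 risen and 1602 to 2378 fallen genes. The 2061 fallen genes became 801 at a mean of at least 50, 3191 with no filter, 1027 under quantile scaling, 3738 under resting-gene scaling and 1159 in edgeR, and the 535 risen became 920 under quantile and 126 under resting-gene scaling.

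After injection 182 checks kept direction and side, 15 gained the call and 8 turned. Under resting-gene scaling Olfml3 stood at 0.35, Cst3 at 0.013, Golm1 at 0.0092 and Bin1 at 0.61, and Bin1 also turned without PBS library 2 (0.00081), 4 (0.019) or 5 (0.014) and without rAPOE library 1 (0.14). Against 0 markers called lower, there were 2 at a pseudocount of 5, 1 at a mean of at least 50, 1 with no filter, 1 under quantile scaling, 3 in DESeq2, 2 with the replicate block and 3 with a term for libraries 4 and 5 (44 risen and 29 fallen genes). Leaving out single libraries gave 0 to 2 (2 without rAPOE library 3), 13 to 36 risen genes (13 without rAPOE library 5) and 2 to 38 fallen ones. The 8 fallen genes became 38 without rAPOE library 3, 5 without rAPOE library 4, 3 without PBS libraries 1, 4 or 5 or rAPOE libraries 1 or 5, 2 without PBS library 3 or rAPOE library 2, and 11 without PBS library 2. The 26 risen genes became 17 at a pseudocount of 0.1, 47 at 5, 45 under quantile scaling, 292 under resting-gene scaling, 70 in DESeq2, 11 with no trend and 10 without both libraries 5. The 8 fallen became 4 at a pseudocount of 0.1, 17 at 5, 16 at a mean of at least 50, 22 under quantile scaling, 1 each under resting-gene scaling, in edgeR, with no trend and without both libraries 5, 45 in DESeq2 and 17 with the replicate block. The cause of these shifts was not tested. Crybb1 and Ltc4s have no value there at a mean of at least 50.

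Same-numbered libraries correlated in their deviations at -0.029 to 0.020 in the genotype table and at -0.0042 to 0.185 in the injection table, over 0.1 for numbers 4 (0.185) and 5 (0.112) alone, and number 4 alone correlated best with its own number. Not every pair exceeded 0.1, so the numbers were not taken as pairs and the block is an alternative. Whether libraries 4 and 5 share a preparation is not given in the sources used here. With the replicate block 5 markers rose in the knockout, Cst3 being added (adjusted p = 0.0471), against 374 risen and 1449 fallen genes. Wild-type libraries 6, 7 and 8 have no knockout library of the same number. That fit thus compared only libraries 1 to 4 of both genotypes, and its change of calls cannot be assigned to the pairing. After rAPOE, Sparc (0.0386) and Slc2a5 (0.0357) passed with the block. Depth limits Crybb1 and Ltc4s after injection, at 7 to 122 reads per library.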

Other observations

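Within groups, the deviations of the markers from their group means moved together more in the injection table than in the genotype table. Over the 36 pairs of markers the median correlation was 0.578 in the injection table (range -0.316 to 0.890, 10 libraries) and 0.160 in the genotype table (range -0.762 to 0.874, 11 libraries). In the injection table Sparc and Ltc4s were the closest pair (0.890), and Golm1 and Slc2a5 the least close (-0.316). There rAPOE libraries 5 and 3 lay farthest from their group, at mean log2 deviations over the markers of -0.82 and 0.74. The part of these libraries in the correlations was not tested. In the genotype table Golm1 and Bin1 were the closest (0.874), and Golm1 and Crybb1 the least close (-0.762), which are the 3 markers for which wild-type library 8 stood out. These are descriptions over libraries that share depth and preparation, and no test was made.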
